A study of Vitis vinifera with 36 samples.

Results

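The transcripts of “Riesling” summer berries were compared between the 3 libraries labelled E-L 38, the harvest stage, and the 3 libraries labelled E-L 36, the end of veraison. These 6 of the 36 libraries of the series were grouped by their cultivar, crop and stage labels alone. That ripening genes ran backward in them was already known from earlier results of these data. The question behind it was which transcripts change as the berries pass from the end of veraison to harvest. In these libraries many genes of ripening moved in the direction opposite to that of the other 3 pairs of stages in the series, and the description below is of those that did and those that did not. Of 28441 genes listed in at least 1 library, 20183 had enough reads to be tested.

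The series holds “Cabernet Sauvignon” (“CS”) and “Riesling” berries from a summer and a winter crop of 2014, in 12 conditions of 3 libraries at the stages E-L 35 (onset of veraison), E-L 36 and E-L 38. All vines were 7 years old, were grafted onto SO4 rootstock, stood under rain shelters in southern China and were forced with hydrogen cyanamide for each crop. The summer crop followed pruning in February, and the winter crop came from the same vineyard after a second pruning in August. RNA came from the whole pericarp of deseeded berries, with 50 berries pooled for each biological replicate, so that differences between single berries of a pool were averaged and changes in skin and flesh cannot be told apart.

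Veraison is the turn from green growth to ripening in the grape berry, when the berry softens, takes up sugar, loses acid and, in coloured cultivars, begins to make anthocyanin. Abscisic acid (ABA) promotes these steps, auxin holds them back, and ethylene takes part even though the grape is not a climacteric fruit. The tannin building blocks, or flavan-3-ols, are made mainly before veraison, and their genes are known to decline as ripening goes on.

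The cultivar and crop labels of the 6 libraries were checked first with genes chosen in the other libraries. There were 7 genes at 5 CPM or more in all 12 other “Riesling” libraries and at 0.5 CPM or less in all 18 “CS” libraries. Their summed level was 84.1 to 90.9 CPM in the libraries labelled E-L 38 and 91.4 to 125 CPM in those labelled E-L 36, against at most 0.894 CPM in any “CS” library. The 95 genes higher in the winter crop in all 4 comparisons that left the 6 libraries out had a median centred level of -1.45 to -1.36 on the log2 scale in the libraries labelled E-L 38 and -0.87 to -0.10 in those labelled E-L 36, and the 18 winter libraries lay between 0.43 and 1.58. For the 74 genes lower in the winter crop it was 1.47 to 1.62 in the libraries labelled E-L 38 and 0.11 to 0.25 in those labelled E-L 36, with the winter libraries at -1.83 to 0.37. The libraries labelled E-L 38 stood with “Riesling” and with the summer crop on all 3 sets, and those labelled E-L 36 lay among the winter libraries on the last set. The “CS” summer libraries at E-L 38, with -0.29 to 0.38, reached into the winter range on that set as well. The study staged the berries by colour and soluble solids, which were not analysed here. Of the genes of stage given next, more were called against the label E-L 38 than with it and most were not called, and the libraries are named by their label throughout.

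Expected counts summed to 10348382 to 10982724 in the libraries labelled E-L 38 and 15813823 to 16490014 in those labelled E-L 36, so the E-L 36 libraries were the deeper ones. In CPM, which scales counts to the library total, 3 counts correspond to 0.273 to 0.290 in the libraries labelled E-L 38 and 0.182 to 0.190 in those labelled E-L 36, a floor that covers counting error only. Replicate 3 of E-L 36 stood apart from replicates 1 and 2 in stilbene and phenylpropanoid transcripts. The 11 PAL genes summed to 434 FPKM in that library and to 19.1 and 13.2 FPKM in replicates 1 and 2, and values of named genes that it moved by over 1.5 times are given with and without it.

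Between the 2 stage labels, 1167 genes were higher and 1235 lower in the libraries labelled E-L 38. A gene was called where edgeR's quasi-likelihood test gave an adjusted p no higher than 0.01 with a change of 2-fold or more, and “rose” and “fell” are kept for such genes. The calls were 5.78% of the tested genes higher and 6.12% lower, and the median log2 fold change of all tested genes was -0.015. Without E-L 36 replicate 3, 1018 genes were higher and 912 lower, or 4.93% and 4.41% of the genes then tested, with 917 of the 1167 higher calls and 844 of the 1235 lower calls kept. As whole berries were extracted, fewer cells of a type and less of a transcript per cell cannot be told apart. Between the same labels 1224 genes were higher (6.06%) and 1983 lower (9.83%) in “CS” winter, 1171 higher (5.8%) and 2651 lower (13.1%) in “Riesling” winter, and 227 higher (1.12%) and 259 lower (1.28%) in “CS” summer berries. The difference between changes was tested as well, and at an adjusted p no higher than 0.01 the change in “Riesling” summer differed from that in “Riesling” winter for 8234 genes (40.8%) and from the mean change of the other 3 series for 8282 genes (41.0%).

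Genes of ripening were defined without the “Riesling” summer libraries, as those called in the same direction between both stages in each of the other 3 series, namely the winter berries of both cultivars and the summer berries of “CS”. There were 35 genes higher at E-L 38 in all 3, called ripening-up here, and 132 genes lower, called ripening-down. Of the 35 ripening-up genes, 12 fell in “Riesling” summer berries, 2 rose and 21 were not called, where 6.12% of all tested genes were called lower and 5.78% higher. Of the 132 ripening-down genes, 47 rose, 5 fell and 80 were not called. As shares, 34.3% of the ripening-up genes and 35.6% of the ripening-down genes ran backward past both limits, and 5.71% and 3.79% ran forward.

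Over all members of each list, called or not, the fold changes lay mostly on the backward side. The median log2 fold change of the ripening-up genes was -0.35 in “Riesling” summer, with 24 of 35 below 0, against 1.86 in “Riesling” winter, 1.80 in “CS” summer and 2.57 in “CS” winter. For the ripening-down genes it was 0.66, with 101 of 132 above 0, against -2.30 in “Riesling” winter, -1.67 in “CS” summer and -2.38 in “CS” winter. The medians of the other 3 series are large by the choice of the lists, which asked for a 2-fold call in each of them. They serve only as a scale. Over all tested genes 48.4% were above 0 in “Riesling” summer. Leaving out E-L 36 replicate 3 gave 8 ripening-up genes lower and 2 higher with a median of -0.15, and 40 ripening-down genes higher and 5 lower with a median of 0.51. The medians kept their sign without that library, and fewer genes of both lists were called backward.

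**Figure D1:**
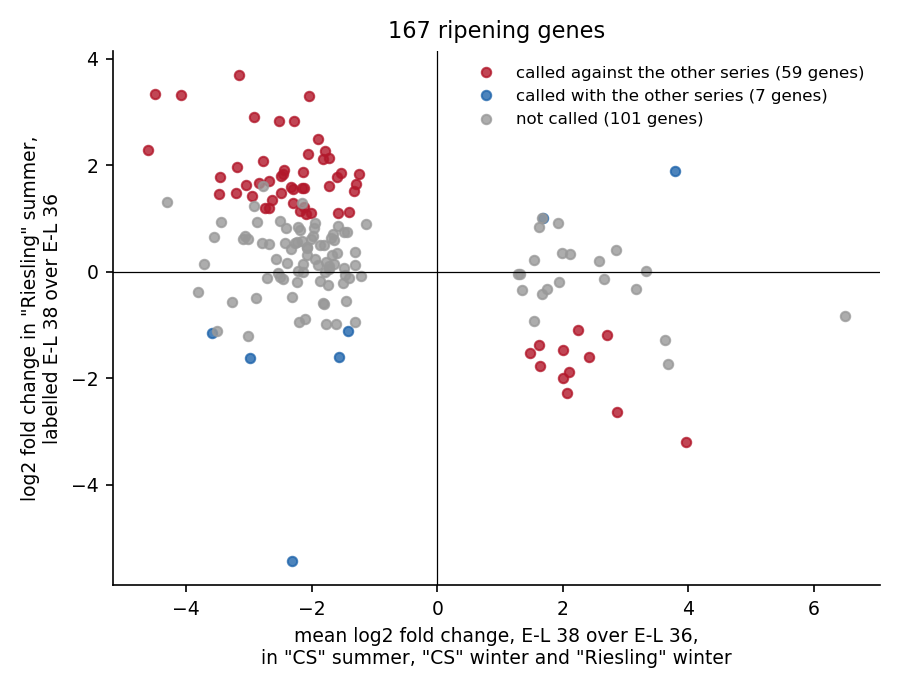
Each point is 1 of 167 ripening genes. The horizontal axis is its mean log2 fold change, E-L 38 over E-L 36, in the 3 other series, and the vertical axis is the log2 fold change in “Riesling” summer, labelled E-L 38 over E-L 36. Red points (59 genes) were called in the direction opposite to the other series, blue points (7 genes) in the same direction, and grey points (101 genes) were not called. The red points lie at the upper left and the lower right.

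The ripening genes were then followed through the 3 stage labels of “Riesling” summer. In single libraries the median level of the ripening-up genes, as log2 CPM with the mean over the 36 libraries taken off, was -0.59, -0.40 and -0.30 in those labelled E-L 38 and 0.12, -0.31 and 0.38 in those labelled E-L 36. Replicate 2 of E-L 36 lay just below the highest library labelled E-L 38, so the groups overlapped on this list. For the ripening-down genes the levels were 0.49, 0.45 and 0.45 in the libraries labelled E-L 38, all above -0.14, 0.02 and -0.40 at E-L 36. At E-L 35 the same medians were -0.81, -0.84 and -0.69 for the ripening-up genes and 0.84, 0.82 and 0.74 for the ripening-down genes. On both lists the libraries labelled E-L 38 lay on the E-L 35 side of the mean of the E-L 36 libraries, and they did not reach the E-L 35 levels.

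**Figure D2:**
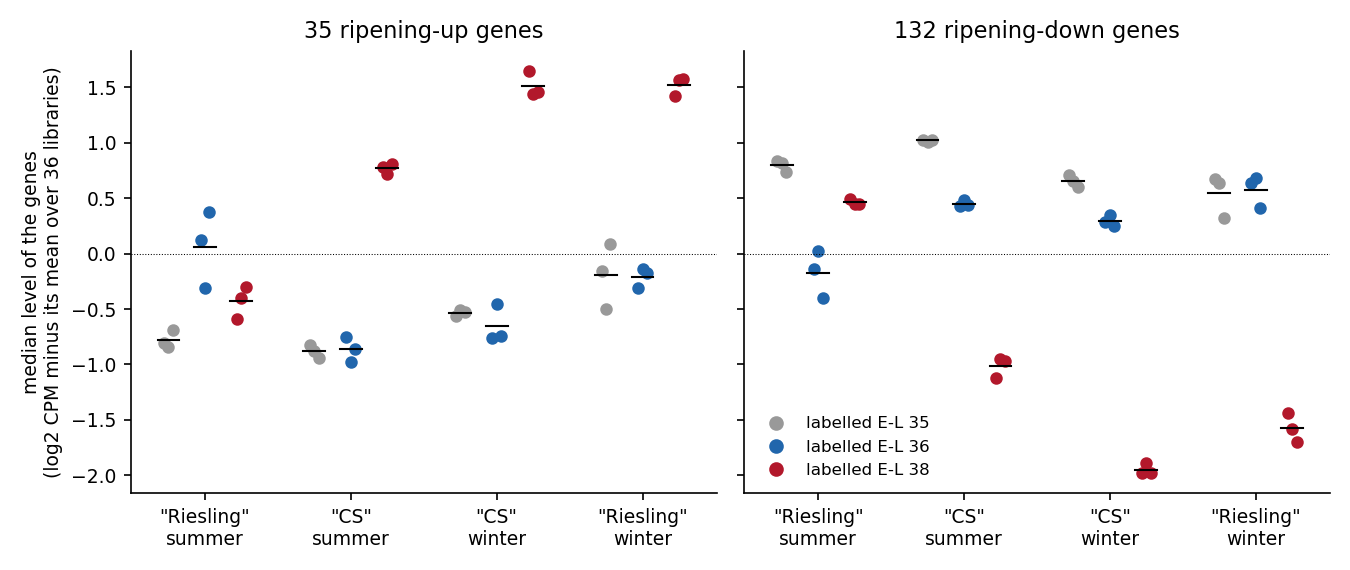
Median level of the 35 ripening-up genes (left) and of the 132 ripening-down genes (right) in each of the 36 libraries, in log2 CPM with each gene's mean over all libraries taken off. Points are libraries, coloured by stage label, and black lines are means of 3 libraries. In the 3 other series the red E-L 38 libraries are the highest on the left and the lowest on the right, and in “Riesling” summer they lie between the E-L 35 libraries and the mean of E-L 36. The lists were chosen by the difference between E-L 38 and E-L 36 in those 3 series.

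Against E-L 35, the libraries labelled E-L 38 had 378 genes higher and 802 lower of the 20183 tested, or 1.87% and 3.97%. Of the ripening-up genes, 5 were higher and 0 lower in this comparison, with a median log2 fold change of 0.33, and of the ripening-down genes 5 were higher and 21 lower, with a median of -0.36. This comparison and the one with E-L 36 share the libraries labelled E-L 38. For each gene the fitted level of the libraries labelled E-L 38 can be placed among those of the earlier stages. It lay between E-L 35 and E-L 36 for 63 of the 132 ripening-down genes and for 15 of the 35 ripening-up genes. A further 38 ripening-down and 9 ripening-up genes lay on the far side of E-L 35, and 28 and 9 lay past E-L 36 in the ripening direction and past E-L 35 as well. The remaining 3 and 2 genes were past E-L 36 but short of E-L 35.

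The 47 ripening-down genes that rose had log2 fold changes of 1.09 to 3.69 over E-L 36, with a median of 1.70, and a median of -0.13 over E-L 35. Against E-L 35, 38 of them were not called. The 12 ripening-up genes that fell changed by -3.20 to -1.08 against E-L 36, with a median of -1.69, and by a median of 0.04 against E-L 35, where 11 were not called. These genes were picked by a comparison that shares libraries with E-L 38 over E-L 35 and with E-L 36 over E-L 35. Their medians in both are therefore shaped by the picking and are a description. For E-L 36 over E-L 35 these medians were -1.77 (ripening-down) and 1.64 (ripening-up) on the log2 scale. Over the whole lists, which were drawn without these libraries, the medians of E-L 36 over E-L 35 were -0.93 and 1.13. Those of the libraries labelled E-L 38 over E-L 35 were -0.36 and 0.33.

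Among genes with no name in the sources used here, VIT_205s0102g00620 (chromosome 5, 22538026 to 22538792, in genome 12X V2) had the largest rise of the ripening-down list. It had 23.06, 21.92 and 32.58 FPKM in the libraries labelled E-L 38 and 2.66, 2.16 and 1.48 FPKM at E-L 36, and it was 22.63, 16.39 and 23.28 at E-L 35. All libraries labelled E-L 38 were above all E-L 36 libraries and about level with E-L 35, and the log2 fold change over E-L 36 was 3.69 (SE 0.29, edgeR adjusted p = 1.6e-10). VIT_207s0005g04130, on chromosome 7 from 7226206 to 7228915, had 67.18, 68.58 and 77.97 FPKM in the libraries labelled E-L 38 and 6.52, 11.01 and 4.86 FPKM at E-L 36. This gene, which changed by -7.02 on the log2 scale in “Riesling” winter, rose by 3.34 (SE 0.26, edgeR adjusted p = 1.9e-10), again without overlap. On the ripening-up list the largest falls were those of VIT_207s0005g00870 (chromosome 7, 3482971 to 3484188) and VIT_200s0375g00040 (unplaced sequence, 26437947 to 26439775). VIT_200s0375g00040 had 0.56, 0.62 and 0.82 FPKM in the libraries labelled E-L 38 and 3.49, 2.09 and 7.80 FPKM at E-L 36, a log2 fold change of -2.62 (SE 0.41, edgeR adjusted p = 1e-05), or -1.95 without E-L 36 replicate 3. VIT_207s0005g00870 had 0.23, 0.08 and 0.08 FPKM in the libraries labelled E-L 38, a sum of 5 counts, and 0.51, 0.47 and 3.01 FPKM at E-L 36, so its fall of 3.20 rests on low counts and on replicate 3. Without that replicate its log2 fold change was -1.77 and it was not called.

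The few ripening genes that ran forward did so by a wide range. The 5 ripening-down genes that fell changed by -5.43 to -1.10 on the log2 scale against E-L 36, and by -3.16 to -1.38 against E-L 35, so they were below both earlier stages. The 2 ripening-up genes that rose changed by 1.00 and 1.89 against E-L 36, and by 0.75 and -0.26 against E-L 35. None of these 7 genes has a name in the sources used here.

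The same reading was made against each other series singly. Of the 227 genes called higher at E-L 38 in “CS” summer, 79 fell in “Riesling” summer (34.8%) and 14 rose (6.17%), and of the 259 called lower, 72 rose (27.8%) and 14 fell (5.41%). Over all tested genes 5.78% rose and 6.12% fell, so against “CS” summer the shares of opposite calls were above, and those of like calls near, these background shares. Of the 1171 genes higher in “Riesling” winter, 193 fell (16.5%) and 28 rose (2.39%), and of the 2651 lower ones, 485 rose (18.3%) and 221 fell (8.34%). Against “CS” winter the opposite shares were 15.8% of 1224 and 14.3% of 1983 genes, and the same-direction shares were 5.64% and 8.27%. Seen from the other side, the 485 genes were 41.6% of all genes that rose in “Riesling” summer, and the 221 genes were 17.9% of all that fell.

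The names and pathways of 216 genes were taken from the tables and text of the study, which cover the flavonoid pathway and its regulators, stilbene synthases, and ABA, ethylene and auxin. Of the 212 that were tested, 15 rose and 48 fell in the libraries labelled E-L 38, with a median log2 fold change of -0.38. Over all tested genes 5.78% rose and 6.12% fell, which is the background for the counts of this paragraph. Without E-L 36 replicate 3 the numbers were 12 and 16 with a median of -0.01, beside 4.93% and 4.41% of all genes. Part of the hormone genes were chosen in the study because they differed between these libraries, so that their counts are no independent evidence. Among the 216, 14 genes were called higher between these stages in at least 2 of the other 3 series and lower in none, and 19 were called lower in at least 2 and higher in none. Of the 14 genes that go up in ripening, 2 fell in “Riesling” summer, 0 rose and 12 were not called, and 13 of the 14 had a log2 fold change below 0 in this fit. Of the 19 that go down in ripening, 5 rose, 3 fell and 11 were not called, with 12 above 0. Without E-L 36 replicate 3 the 2 falls remained in number, and 3 of the 19 rose and 4 fell.

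**Figure D3:**
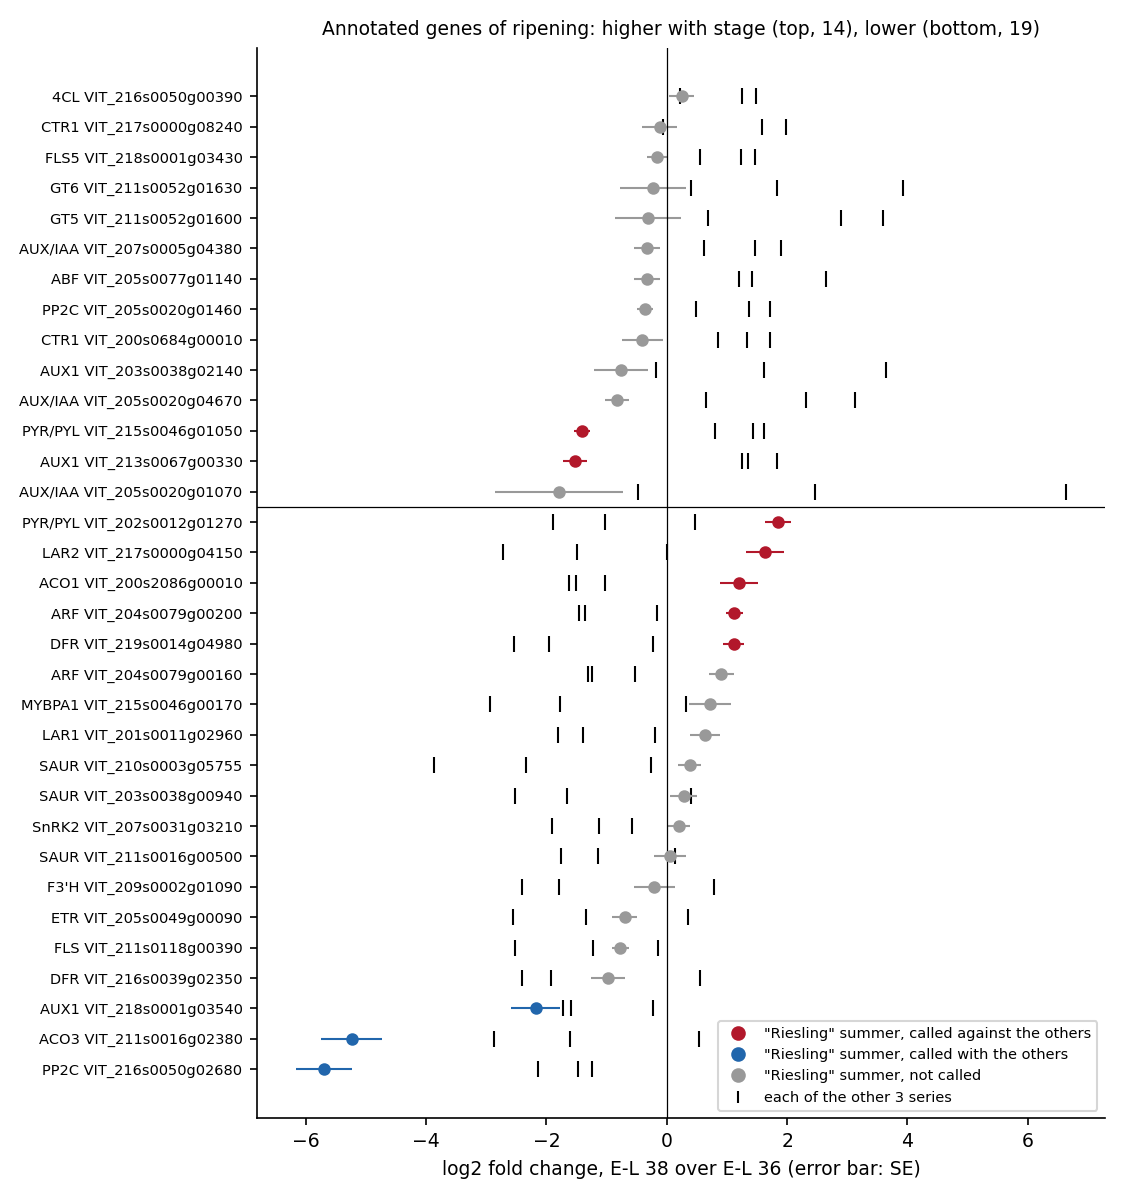
Log2 fold change, E-L 38 over E-L 36, of the 33 annotated genes that changed in at least 2 of the other 3 series. Points with SE bars are “Riesling” summer (red: called against the others, blue: called with them, grey: not called) and vertical ticks are the other 3 series. Red points lie across the zero line from most of their ticks, and the 3 blue points are at the bottom, with ACO3 and PP2C VIT_216s0050g02680 below all of their ticks.

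Genes of the late flavonoid and tannin steps were among those that ran backward. *VviDFR* VIT_219s0014g04980, on chromosome 19 from 5318062 to 5327582, encodes dihydroflavonol 4-reductase, the enzyme shared by the anthocyanin and tannin branches. It had 61.88, 57.94 and 80.55 FPKM in the libraries labelled E-L 38 and 31.77, 34.66 and 32.26 FPKM at E-L 36. The groups did not overlap, and neither did those of 24.5% of all tested genes in the higher and 24.2% in the lower direction. The log2 fold change of *VviDFR* VIT_219s0014g04980 was 1.11 (SE 0.17, edgeR adjusted p = 7.3e-06), and it was 0.96, short of the fold limit, without replicate 3 of the libraries labelled E-L 38. The same gene was at -2.54 in “Riesling” winter and -1.95 in “CS” winter, and at -0.23 without a call in “CS” summer. *VviLAR2*, on chromosome 17 from 4274223 to 4278049, encodes a leucoanthocyanidin reductase, which makes flavan-3-ols. It had 14.03, 13.10 and 15.43 FPKM in the libraries labelled E-L 38 and 4.21, 4.37 and 5.05 FPKM at E-L 36, without overlap. Its log2 fold change was 1.63 (SE 0.32, edgeR adjusted p = 0.00019), against -1.49 in “CS” summer and -2.73 in “Riesling” winter. In “CS” winter *VviLAR2* was at 0.01 and was not called.

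Their neighbours in the pathway gave smaller values or other directions. The *VviDFR* genes VIT_218s0001g12800, VIT_215s0048g01000 and VIT_215s0048g01010 were at -0.01 (SE 0.16), 0.88 (SE 0.27) and 0.55 (SE 0.20), and none was called. *VviLDOX* VIT_208s0105g00380 was at -0.49 (SE 0.18), and VIT_202s0025g04720 was at -0.21 (SE 0.26), or 0.16 without E-L 36 replicate 3. *VviANR*, which makes epicatechin units and is active in seeds as well, had 0.96, 1.32 and 1.13 FPKM in the libraries labelled E-L 38 and 1.83, 1.76 and 1.35 FPKM at E-L 36, a log2 fold change of -0.45 (SE 0.35) without a call. The tannin regulator *VviMYBPA2* was at or below 0.07 FPKM in all 6 libraries and was not tested. These flavan-3-ol genes are known from seed coat as well as from young skin, and a part of seed tissue in these values was not tested. *VviLAR1* had 4.24, 3.12 and 6.91 FPKM in the libraries labelled E-L 38 and 2.91, 3.47 and 3.39 FPKM at E-L 36, which overlapped, and a log2 fold change of 0.64 (SE 0.25, edgeR adjusted p = 0.042) that was not called. *VviMYBPA1*, a regulator of tannin synthesis, had 2.59, 2.73 and 2.93 FPKM in the libraries labelled E-L 38 and 1.88, 2.19 and 1.23 FPKM at E-L 36, with 0.72 (SE 0.35, edgeR adjusted p = 0.11). A short *VviDFR* model, VIT_216s0039g02350, ran the other way at -0.98 (SE 0.28, edgeR adjusted p = 0.006), just short of the fold limit, and without E-L 36 replicate 3 it was called at -1.08. The flavonol synthase *VviFLS* VIT_211s0118g00390 had 29.13, 25.97 and 30.74 FPKM in the libraries labelled E-L 38 and 41.78, 53.97 and 58.76 FPKM at E-L 36. This gene, lower with ripening in both winter crops, was thus below its E-L 36 level here too, by -0.77 (SE 0.14, edgeR adjusted p = 8.3e-05), which is short of the fold limit.

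Flavonol genes that rise in ripening elsewhere were not called here. *VviFLS5*, a flavonol synthase, had 51.62, 51.51 and 46.35 FPKM in the libraries labelled E-L 38 and 56.58, 79.37 and 49.87 FPKM at E-L 36, and these groups overlapped. Its log2 fold change was -0.16 (SE 0.17) against 1.23 in “CS” winter and 1.47 in “Riesling” winter. The flavonol glycosyltransferases *VviGT5* and *VviGT6* changed by -0.31 (SE 0.55) and -0.23 (SE 0.55), against 2.90 and 1.83 in “Riesling” winter. *Vvi4CL* VIT_216s0050g00390, a 4-coumarate:CoA ligase of the phenylpropanoid entry, was the single member of the 14 above 0, at 0.25 (SE 0.21), with 73.38, 70.88 and 52.81 FPKM in the libraries labelled E-L 38 and 62.94, 40.45 and 73.33 FPKM at E-L 36. VviF3′H VIT_209s0002g01090, a flavonoid 3′-hydroxylase that falls in both winter crops, had 1.73, 1.24 and 1.12 FPKM in the libraries labelled E-L 38, 1.51, 2.02 and 1.53 FPKM at E-L 36, and a log2 fold change of -0.21 (SE 0.34).

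Several flavonoid genes outside the ripening lists rose as well. *VviF3H* VIT_216s0098g00860 encodes a flavanone 3-hydroxylase and had 5.34, 5.60 and 13.55 FPKM in the libraries labelled E-L 38 and 1.45, 1.54 and 2.99 FPKM at E-L 36. The groups did not overlap, the log2 fold change was 2.12 (SE 0.46, edgeR adjusted p = 0.00048), and without replicate 3 of the libraries labelled E-L 38 it was 1.55 and no longer called. A second 3′-hydroxylase, VviF3′H VIT_203s0063g01690, had 5.96, 6.79 and 6.24 FPKM in the libraries labelled E-L 38 and 2.37, 1.92 and 1.65 FPKM at E-L 36, a log2 fold change of 1.76 (SE 0.21, edgeR adjusted p = 1.9e-07). *VviDFR* VIT_202s0025g01260 rose by 1.79 (SE 0.41, edgeR adjusted p = 0.00088), with 5.86, 6.35 and 7.08 FPKM in the libraries labelled E-L 38 and 2.18, 1.76 and 2.03 FPKM at E-L 36. In “Riesling” winter each of these 3 genes was called lower at E-L 38. The other *VviF3H* genes were not called. VIT_218s0001g14310, with 82.90, 83.16 and 76.72 FPKM in the libraries labelled E-L 38, was at -0.04 (SE 0.16). VIT_202s0025g02960, VIT_213s0047g00210 and VIT_204s0023g03370 were at 0.06 (SE 0.36), 0.67 (SE 0.28) and -1.30 (SE 0.44). By list, 1 of 9 early flavonoid genes, 1 of 8 B-ring hydroxylases, 2 of 8 late flavonoid genes and 1 of 3 flavan-3-ol genes rose, where 5.78% of all tested genes did, and 0 of each list fell in edgeR. At an unadjusted p under 0.05, 2 early and 2 late flavonoid genes were lower and 0 of the other 2 lists, and DESeq2 called 1 early flavonoid gene lower. The medians of these lists were 0.06, 1.20, 0.27 and 0.64 on the log2 scale, beside -0.015 over all tested genes. The median of 1.20 for the B-ring hydroxylases rests on values near the floor. Apart from the F3′H genes, at 1.76 and -0.21, the members of that list had at most 6 counts in either group.

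Of 7 genes of anthocyanin modification, 0 were called in either direction by edgeR or DESeq2, with 1 higher and 1 lower at an unadjusted p under 0.05. The 3 AOMT genes, whose enzymes methylate anthocyanins, summed to at most 0.64 FPKM in any library of this white cultivar, against 17.97 or more in every “CS” library. The 53GT genes VIT_205s0062g00300 and VIT_205s0062g00310, named for their glycosyltransferase activity on anthocyanins and chosen after their values were seen, were at -2.19 (SE 1.06) and -1.66 (SE 0.90) with all libraries and at 1.43 and 1.91 without E-L 36 replicate 3, without a call in either fit. The 6 F3′5′H genes, which lead to the blue anthocyanins, summed to 0.53, 0.59 and 0.84 FPKM in the libraries labelled E-L 38 and 0.14, 0.15 and 0.00 FPKM at E-L 36, after 3.23, 4.23 and 14.2 FPKM at E-L 35. *VviUFGT*, which makes the first stable anthocyanin, had 10.48, 10.52 and 10.53 FPKM in the libraries labelled E-L 38 and 8.00, 7.70 and 7.66 FPKM at E-L 36, a log2 fold change of 0.52 that was not called. Of the 4 MYBA genes, 3 fell, where 5.78% of all tested genes rose and 6.12% fell. In the study's account, *VviMYBA1* and *VviMYBA2* act on UFGT in red grapes and do not work in white ones. It ties *VviMYBA3* to colour by statistics alone. *VviMYBA2* had 0.58, 0.33 and 0.78 FPKM in the libraries labelled E-L 38 and 7.65, 7.17 and 42.80 FPKM at E-L 36, with the highest value in replicate 3. The groups did not overlap, and the log2 fold change was -4.89 (SE 0.79, edgeR adjusted p = 1.7e-05), or -3.52 without that replicate. *VviMYBA1* VIT_202s0033g00380 had no count in any library labelled E-L 38 and 3.41, 3.53 and 17.70 FPKM at E-L 36, so it was at least 6.31-fold lower, computed against 3 counts per library, or at least 2.66-fold lower without E-L 36 replicate 3. A second gene of that name, VIT_202s0033g00410, had 3 counts in all in the libraries labelled E-L 38 and 0 at E-L 36 and was not called. *VviMYBA3* fell by 4.56 (SE 0.95, edgeR adjusted p = 0.00034) and by 2.89 without E-L 36 replicate 3. The 3 genes that fell are neighbours of similar sequence on chromosome 2, so the share of reads of each is uncertain, and in “Riesling” winter their levels changed by 0.55, 0.08 and -0.24 without a call.

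**Figure D4:**
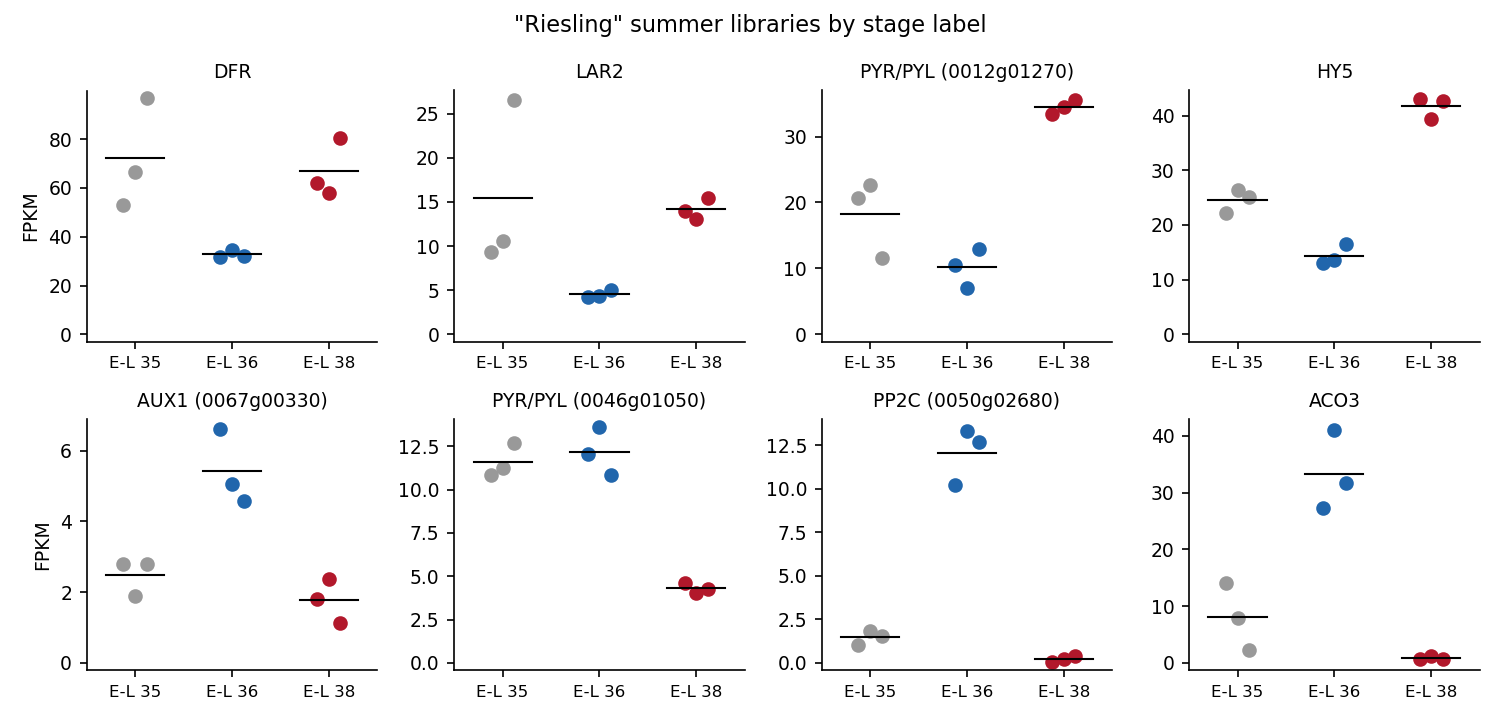
FPKM of 8 genes in the 9 “Riesling” summer libraries, by stage label in the order E-L 35, E-L 36 and E-L 38. Points are libraries and black lines their means. In the upper row the libraries labelled E-L 38 are above all E-L 36 libraries, and in the lower row they are below all of them.

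Light signalling gave 1 call. *VviHY5*, a bZIP factor that turns on flavonol and other light-responsive genes, had 43.08, 39.45 and 42.74 FPKM in the libraries labelled E-L 38 and 13.03, 13.51 and 16.54 FPKM at E-L 36. All libraries labelled E-L 38 were above all of E-L 36 and of E-L 35, and the log2 fold change was 1.51 (SE 0.17, edgeR adjusted p = 7.4e-08). It was the only one of 5 UV-B signalling genes past both limits, where 5.78% of all tested genes rose and 6.12% fell. The UV-B receptor gene *VviUVR1* had 24.14, 23.97 and 25.27 FPKM in the libraries labelled E-L 38 and 18.13, 16.42 and 14.93 FPKM at E-L 36, at 0.66 on the log2 scale. *VviCOP1-1* was at -0.68, and the study describes COP1 as a positive partner of the UV-B receptor. *VviMYC1*, a bHLH partner of flavonoid MYB factors, had 25.25, 24.78 and 19.73 FPKM in the libraries labelled E-L 38 and 9.57, 12.27 and 9.45 FPKM at E-L 36, and rose by 1.22 (SE 0.13, edgeR adjusted p = 3.7e-08). *VviHY5*, *VviMYC1* and the genes called singly in their list were named after their values were seen.

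The ABA genes split, with members on either side. PYR/PYL proteins are the ABA receptors, PP2C phosphatases hold the pathway off until a receptor binds them, and SnRK2 kinases and ABF factors act below. The receptor gene VIT_202s0012g01270, on chromosome 2 from 7370362 to 7372070, had 33.46, 34.47 and 35.56 FPKM in the libraries labelled E-L 38 and 10.47, 7.02 and 12.97 FPKM at E-L 36. It rose by 1.85 (SE 0.22, edgeR adjusted p = 2.3e-07) without overlap, where it was called lower in both winter crops. Another receptor gene, VIT_215s0046g01050 on chromosome 15 from 18133082 to 18139295, ran backward the other way, with 4.59, 4.04 and 4.28 FPKM in the libraries labelled E-L 38 and 12.05, 13.60 and 10.82 FPKM at E-L 36. It fell by 1.41 on the log2 scale (SE 0.13, edgeR adjusted p = 4.7e-09), against 0.80 in “Riesling” winter, 1.43 in “CS” summer and 1.62 in “CS” winter. Its E-L 35 values of 10.86, 11.23 and 12.67 FPKM were also above those of the libraries labelled E-L 38, so for this gene there was no return to an E-L 35 level.

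A PP2C gene ran forward. VIT_216s0050g02680, on chromosome 16 from 19697155 to 19699942, had 0.06, 0.20 and 0.37 FPKM in the libraries labelled E-L 38, 10.22, 13.33 and 12.66 FPKM at E-L 36, and 1.02, 1.85 and 1.55 FPKM at E-L 35. It fell by 5.70 (SE 0.47, edgeR adjusted p = 4.3e-10), against -1.47 in “Riesling” winter and -2.14 in “CS” winter, and it was also called lower than at E-L 35. The difference from the change in “Riesling” winter was itself past the limit, at -4.23 (edgeR adjusted p = 8.8e-07). Other ABA genes of ripening were not called. *VviABF* VIT_205s0077g01140, which was called higher in all 3 other series, had 6.64, 6.89 and 8.27 FPKM in the libraries labelled E-L 38 and 8.46, 8.36 and 12.34 FPKM at E-L 36, at -0.33 (SE 0.21). *VviPP2C* VIT_205s0020g01460 was at -0.36 (SE 0.13) and *VviSnRK2* VIT_207s0031g03210 at 0.20 (SE 0.18).

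In ABA synthesis, the xanthoxin dehydrogenase gene VIT_213s0019g01010 had 47.30, 40.25 and 50.00 FPKM in the libraries labelled E-L 38 and 18.64, 16.53 and 15.45 FPKM at E-L 36. It encodes the enzyme that makes abscisic aldehyde, and it rose by 1.53 (SE 0.18, edgeR adjusted p = 2.4e-07). The next enzyme, abscisic aldehyde oxidase VIT_218s0041g02410, rose by 1.48 (SE 0.33, edgeR adjusted p = 0.00064), with 1.80, 1.23 and 1.6 FPKM in the libraries labelled E-L 38 and 0.46, 0.70 and 0.58 FPKM at E-L 36. The study treats the NCED genes as the key step of ABA synthesis. *VviNCED2*, *VviNCED3* and *VviNCED6* were at -0.59 (SE 0.38), -0.31 (SE 0.30) and -1.24 (SE 0.40), and none was called. The abscisate β-glucosidase gene VIT_201s0011g00760, whose enzyme frees ABA from its glucose ester, fell by 1.69 (SE 0.32, edgeR adjusted p = 0.0001), with 9.79, 7.90 and 9.60 FPKM in the libraries labelled E-L 38 and 26.07, 38.83 and 28.81 FPKM at E-L 36. Of 35 ABA genes, 3 rose and 5 fell, where 5.78% and 6.12% of all tested genes did, with a median log2 fold change of -0.34, and without E-L 36 replicate 3 the numbers were 3 and 3, beside 4.93% and 4.41% of all genes, with a median of -0.19. A receptor gene, VIT_205s0077g01550, was among those lost, with 846.72 FPKM in E-L 36 replicate 3 against 3.66 and 1.77 FPKM in replicates 1 and 2, and 3.52, 1.23 and 0.32 FPKM in the libraries labelled E-L 38.

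Ethylene genes also held both directions. ACC oxidases (ACO) make ethylene, ETR and EIN4 are its receptors, and CTR1 kinases repress the response until ethylene binds. *VviACO3*, on chromosome 11 from 1906128 to 1908045, had 0.64, 1.12 and 0.75 FPKM in the libraries labelled E-L 38, 27.39, 40.98 and 31.77 FPKM at E-L 36, and 14.08, 7.86 and 2.20 FPKM at E-L 35. It fell by 5.24 (SE 0.51, edgeR adjusted p = 6.8e-09), the forward direction, and was below every library of both earlier stages. Backward ran *VviACO1*, with 15.82, 15.26 and 12.11 FPKM in the libraries labelled E-L 38 and 7.32, 7.52 and 5.23 FPKM at E-L 36. Its rise of 1.20 (SE 0.32, edgeR adjusted p = 0.0041) was called in 2 of 6 fits with 1 library removed in turn, and it was 1.04 without E-L 36 replicate 3. Another member, *VviACO* VIT_205s0049g00420, rose by 2.14 (SE 0.32, edgeR adjusted p = 5.3e-06), with 4.47, 5.24 and 6.88 FPKM in the libraries labelled E-L 38 and 1.31, 1.12 and 1.57 FPKM at E-L 36.

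Receptors fell where they changed. *VviEIN4* VIT_206s0004g05240 had 0.06, 0.12 and 0.11 FPKM in the libraries labelled E-L 38 and 1.07, 0.57 and 2.45 FPKM at E-L 36, and fell by 3.68 (SE 0.56, edgeR adjusted p = 6.7e-06), or by 2.96 without E-L 36 replicate 3. *VviETR* VIT_207s0005g00850 had 9.92, 9.75 and 9.42 FPKM in the libraries labelled E-L 38 and 27.78, 24.59 and 33.13 FPKM at E-L 36, and fell by 1.46 (SE 0.16, edgeR adjusted p = 3.2e-08). Neither was called between these stages in any other series. *VviETR* VIT_205s0049g00090, lower with ripening in both winter crops, stood at 18.07, 17.37 and 15.47 FPKM in the libraries labelled E-L 38 and 29.33, 23.55 and 34.76 FPKM at E-L 36, a log2 fold change of -0.70 (SE 0.21) short of the fold limit. The 2 CTR1 genes of the ripening set, VIT_217s0000g08240 and VIT_200s0684g00010, were at -0.12 (SE 0.29) and -0.41 (SE 0.34), against 1.58 and 1.72 in “Riesling” winter. A CTR1 gene outside that set, VIT_218s0001g07700, fell. It kept its call in 3 of 6 fits with 1 library removed in turn, at -1.81 to -1.23. Over the list, 2 of 21 ethylene genes rose and 5 fell (5.78% and 6.12% of all tested genes), or 1 and 3 without E-L 36 replicate 3 (4.93% and 4.41%), and *VviACO2* was at -1.74 with that library and -0.73 without it.

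Auxin genes of ripening were mostly short of the limits. AUX1 proteins carry auxin into cells, AUX/IAA proteins repress its response, ARF factors carry the response out, and SAUR genes are early auxin-responsive genes. *VviAUX1* VIT_213s0067g00330, on chromosome 13 from 220407 to 225984, was called higher with ripening in all 3 other series. In “Riesling” summer it had 1.81, 2.38 and 1.14 FPKM in the libraries labelled E-L 38 and 6.62, 5.06 and 4.58 FPKM at E-L 36, a fall of 1.52 (SE 0.20, edgeR adjusted p = 1.2e-06) without overlap. *VviAUX1* VIT_218s0001g03540 ran forward, with 0.12, 0.35 and 0.21 FPKM in the libraries labelled E-L 38 and 1.08, 1.32 and 0.93 FPKM at E-L 36, and fell by 2.18 (SE 0.41, edgeR adjusted p = 0.00013). *VviARF* VIT_204s0079g00200 ran backward at 1.12 (SE 0.14, edgeR adjusted p = 4.2e-07), with 11.92, 11.86 and 10.81 FPKM in the libraries labelled E-L 38 and 6.69, 6.07 and 4.78 FPKM at E-L 36, and was at 0.98 without E-L 36 replicate 3. Its neighbour VIT_204s0079g00160 was at 0.91 (SE 0.21).

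Not called were the AUX/IAA genes VIT_205s0020g04670 and VIT_207s0005g04380, at -0.83 (SE 0.20) and -0.33 (SE 0.21), which changed by 3.13 and 1.90 in “Riesling” winter. VIT_205s0020g04670 had 18.69, 17.53 and 13.18 FPKM in the libraries labelled E-L 38 and 31.28, 31.38 and 30.90 FPKM at E-L 36, so its libraries did not overlap either. The SAUR genes VIT_210s0003g05755, VIT_203s0038g00940 and VIT_211s0016g00500, all called lower in both winter crops, were at 0.38 (SE 0.19), 0.28 (SE 0.22) and 0.05 (SE 0.27). Outside the ripening set, *VviSAUR* VIT_209s0002g00650 had 0.11, 0.12 and 0.00 FPKM in the libraries labelled E-L 38 and 3.47, 4.36 and 5.53 FPKM at E-L 36, and fell by 5.56 (SE 0.74, edgeR adjusted p = 1.1e-06). *VviARF* VIT_200s1203g00010 rose by 2.13 (SE 0.40, edgeR adjusted p = 0.00015), with 4.59, 4.81 and 5.42 FPKM in the libraries labelled E-L 38 and 1.07, 1.35 and 1.20 FPKM at E-L 36, and its E-L 35 libraries had 4.55, 5.78 and 6.08 FPKM. The *VviYUCCA* gene VIT_207s0104g01260, of auxin synthesis, fell as well. It kept its call in 3 of 6 fits with 1 library removed in turn, at -5.58 to -1.43. In all, 2 of 51 auxin genes rose and 8 fell (5.78% and 6.12% of all tested genes), or 1 and 5 without E-L 36 replicate 3 (4.93% and 4.41%).

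The stilbene and phenylpropanoid entry genes gave the lowest list medians, and these rest on 1 library. Stilbene synthases (STS) make resveratrol, a defence compound, and phenylalanine ammonia-lyase (PAL) opens the pathway to it and to the flavonoids. The 24 STS genes summed to 16.1, 16.1 and 20.2 FPKM in the libraries labelled E-L 38 and 22.6, 16.3 and 1109 FPKM at E-L 36, and the 11 PAL genes to 18.41, 16.99 and 13.68 FPKM in the libraries labelled E-L 38 and 19.07, 13.16 and 434.1 FPKM at E-L 36. Of these 6 libraries, E-L 36 replicate 3 stood apart. Replicate 3 was also the highest in STS genes in the other “Riesling” groups except winter E-L 38, where it was the lowest. It had 277.2 FPKM at summer E-L 35, against 21.06 and 39.73 FPKM in replicates 1 and 2 there, and 251.0 FPKM at winter E-L 36, against 86.7 and 79.12 FPKM. With all libraries 14 STS genes and 8 PAL genes fell and 0 rose, where 6.12% and 5.78% of all tested genes did. The medians were -4.32 (STS) and -3.19 (PAL) on the log2 scale, and the STS median was -4.22 with genes at 0 counts set to their bound. Without E-L 36 replicate 3 edgeR called 0 of either list, beside 4.93% of all genes higher and 4.41% lower. At an unadjusted p under 0.05, 1 STS gene was then lower and 1 PAL gene higher, and the medians were -0.12 (STS) and 0.42 (PAL). *VviMYB14*, a regulator of STS genes, followed them, with 0.83, 0.67 and 1.09 FPKM in the libraries labelled E-L 38 and 0.58, 0.96 and 24.69 FPKM at E-L 36. The copies of STS and PAL lie in clusters whose reads are shared, so values of single copies are uncertain.

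**Figure D5:**
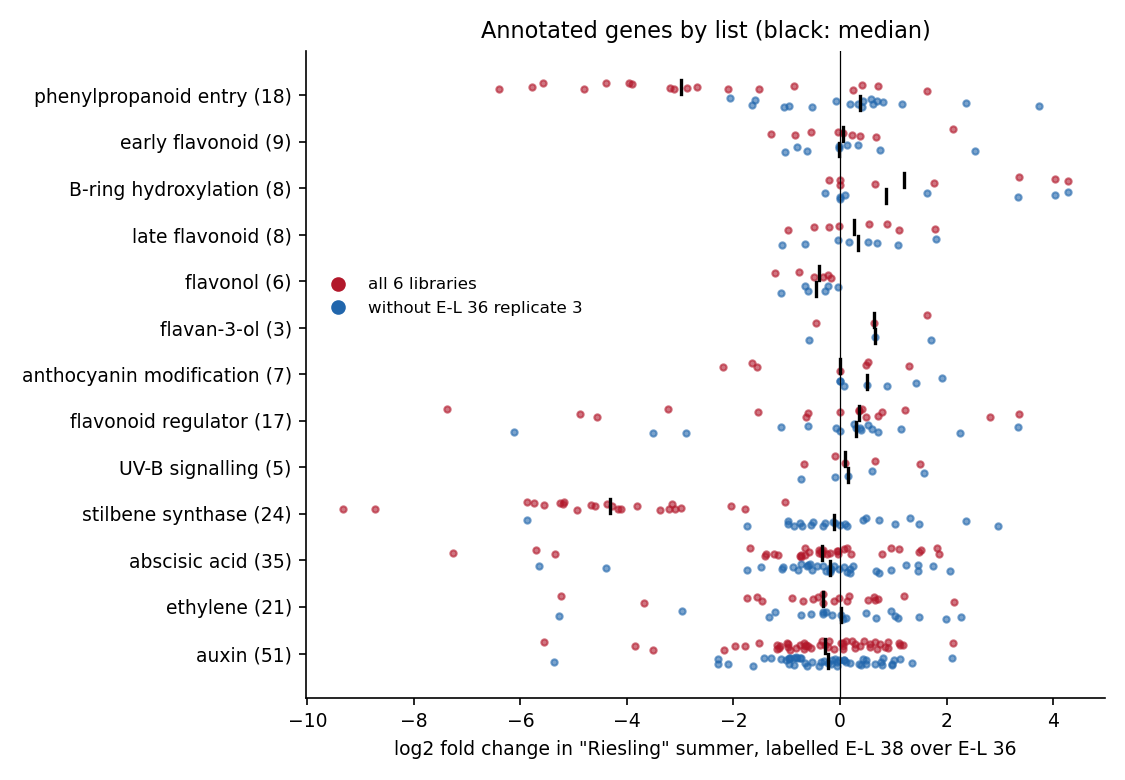
Log2 fold change in “Riesling” summer, labelled E-L 38 over E-L 36, of the annotated genes tested, by list, with the number of genes in brackets. Red points are from the fit with all 6 libraries and blue points from the fit without E-L 36 replicate 3, and black bars are medians. The red points of the stilbene synthase and phenylpropanoid entry lists lie far left of their blue points, and the other medians lie between -0.44 (flavonol, without that library) and 1.20 (B-ring hydroxylation, all libraries). Most B-ring hydroxylation genes had at most 6 counts in either group.

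*VviMYB15*, which also acts on STS genes, kept its call without that library, with 8.23, 8.45 and 11.26 FPKM in the libraries labelled E-L 38 and 24.30, 18.53 and 43.93 FPKM at E-L 36. Its log2 fold change was -1.54 (SE 0.33, edgeR adjusted p = 0.00044), or -1.10 without replicate 3. *VviRhaT1*, a rhamnosyltransferase, was the only flavonol gene called, at -1.22 (SE 0.34, edgeR adjusted p = 0.0055), and kept its call in 1 of 6 fits with a library removed in turn, at -1.38 to -1.11. The calls of 68 genes, taken by the naming rule or named after their values were seen, were followed with each library left out. Of these 45 were called, of which 26 kept that call whichever of the 6 libraries was left out. The other 19 included 4 STS, 3 PAL and 1 C4H gene.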

How the data were processed

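Berries were sequenced by the authors as short single reads on an Illumina instrument and mapped to the grape genome 12X V2. The submitters' processing notes name Bowtie, with no version. The authors deposited for each library an expected count per gene, an estimated read number that is not normalized, and an FPKM value, which divides it by transcript length and library reads. The counting program and its use of strand are not given in the sources used here, so overlapping genes and near-identical copies are uncertain: 24.7% to 27.2% of genes in the 6 libraries had a fractional expected count. Genes without a row in a library were set to 0.

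Groups and replicate numbers come from the labels. Expected counts were rounded, filtered with filterByExpr (20183 of 28441 genes left), normalized with TMM and fitted in edgeR 4.0.16 (R 4.3.3) with its quasi-likelihood test over all 12 conditions. P-values were adjusted after Benjamini and Hochberg over all genes tested, and calls require an adjusted p no higher than 0.01 together with a 2-fold change. A difference between 2 changes was tested as a contrast of the same fit, with the adjusted p only. The SE is the log2 fold change divided by the square root of F. FPKM is shown, not tested, except in limma 3.58.1 as an alternative with 1 or 0.1 added before log2. A fold against libraries all at 0 was computed against 3 counts per library.

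Genes named are the annotated genes with the largest called changes whose groups do not overlap (at most 30, mean FPKM of at least 1 in a group), the annotated genes changing in at least 2 of the other 3 series, and 4 unnamed genes with the largest backward changes. Some genes outside this rule were named after their values were seen. Members, lists and tests were chosen with earlier results of these data known. Names come from the study, since 0 identifiers matched the reference table of names. A table with 36 numbered columns was not used. Python 3.11.15 made the figures. The fit was tested on simulated data, where it recovered 50.7% of 2-fold, 98.5% of 4-fold and 100% of 8-fold changes of this comparison among 19171 genes tested. The simulation gave all genes the same spread and held no library that stood apart, so these shares do not give the recovery in the real libraries. Other settings tried were DESeq2 1.42.0, its size factors, other filters, fits of fewer libraries and each library left out.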

Additional observations from a re-analysis of the deposited data

Results flagged for a closer look

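Between the labels E-L 36 and E-L 38, the change in “Riesling” summer differed from its counterpart in “Riesling” winter for 8234 genes (40.8% of those tested) and from the mean change of the other 3 series for 8282 genes (41.0%), by an edgeR contrast with an adjusted p no higher than 0.01. The differences below are those of the named genes, as the log2 fold change in “Riesling” summer minus that in “Riesling” winter, each past the same limit. Many of these genes were named for their change in “Riesling” winter or in “Riesling” summer, so a large difference was to be found among them and its size is a description. Of the phenylpropanoid entry it was -1.23 for 4CL VIT_216s0050g00390. Among early flavonoid genes it was 5.18 for F3H VIT_216s0098g00860. For the B-ring hydroxylases it was 3.42 for F3′H VIT_203s0063g01690 and 2.20 for F3′H VIT_209s0002g01090. For the late flavonoid genes it was 1.43 for DFR VIT_216s0039g02350, 3.65 for DFR VIT_219s0014g04980 and 7.53 for DFR VIT_202s0025g01260. Among flavonol genes it was -1.64 for FLS5 VIT_218s0001g03430 and -3.21 for GT5 VIT_211s0052g01600. For the flavan-3-ol genes it was 2.04 for LAR1 VIT_201s0011g02960 and 4.36 for LAR2 VIT_217s0000g04150. Of the regulators it was -7.93 for MYBA1 VIT_202s0033g00380, -4.97 for MYBA2 VIT_202s0033g00390, -4.31 for MYBA3 VIT_202s0033g00450, -1.58 for MYB15 VIT_205s0049g01020, 3.67 for MYBPA1 VIT_215s0046g00170 and 0.64 for MYC1 VIT_207s0104g00090. In UV-B signalling it was 0.79 for HY5 VIT_204s0008g05210. Among stilbene synthases it was -9.32 for STS VIT_216s0100g00930. Of the ABA genes it was 2.35 for Xanthoxin dehydrogenase VIT_213s0019g01010, -2.07 for Abscisate β-glucosidase VIT_201s0011g00760, 3.75 for PYR/PYL VIT_202s0012g01270, -2.21 for PYR/PYL VIT_215s0046g01050, -4.23 for PP2C VIT_216s0050g02680, -2.07 for PP2C VIT_205s0020g01460, 2.11 for SnRK2 VIT_207s0031g03210, -1.53 for ABF VIT_205s0077g01140, 3.72 for Abscisic aldehyde oxidase VIT_218s0041g02410 and -7.79 for PYR/PYL VIT_205s0077g01550. For ethylene it was 2.22 for ACO1 VIT_200s2086g00010, -3.64 for ACO3 VIT_211s0016g02380, 3.79 for ACO VIT_205s0049g00420, 1.86 for ETR VIT_205s0049g00090, -2.77 for EIN4 VIT_206s0004g05240, -1.69 for CTR1 VIT_217s0000g08240, -2.14 for CTR1 VIT_200s0684g00010 and -0.76 for ETR VIT_207s0005g00850. For auxin it was -3.36 for AUX1 VIT_213s0067g00330, -4.39 for AUX1 VIT_203s0038g02140, -4.26 for AUX/IAA VIT_205s0020g01070, -3.95 for AUX/IAA VIT_205s0020g04670, -2.23 for AUX/IAA VIT_207s0005g04380, 2.48 for ARF VIT_204s0079g00200, 3.28 for ARF VIT_200s1203g00010, 2.22 for ARF VIT_204s0079g00160, -5.55 for SAUR VIT_209s0002g00650, 4.25 for SAUR VIT_210s0003g05755, 1.79 for SAUR VIT_211s0016g00500 and 2.81 for SAUR VIT_203s0038g00940. MYBA1 VIT_202s0033g00380 and STS VIT_216s0100g00930 had no count in the libraries labelled E-L 38, so their differences are fitted values of no exact size. Without E-L 36 replicate 3, 41 of the 49 differences were still past the limit. The 8 that were not are those of STS VIT_216s0100g00930 (-6.45, adjusted p = 0.039), PYR/PYL VIT_205s0077g01550 (-1.11, adjusted p = 0.65), MYBA3 (-2.64), EIN4 (-2.04), MYB15 (-1.15), DFR VIT_216s0039g02350 (1.33), MYC1 (0.56) and ETR VIT_207s0005g00850 (-0.64). The cause of these differences was not tested. No group of 3 libraries was searched for outliers.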

How the results depend on the processing

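With each of the 6 libraries left out in turn, 993 to 1120 genes were higher and 912 to 1295 lower in the libraries labelled E-L 38, and the ripening genes called backward numbered 8 to 13 (up) and 40 to 49 (down), with 0 to 4 and 3 to 5 forward. The number of lower genes was 816 in a fit of the 6 libraries, 768 with a replicate block in that fit, and 808 with limma on log2(FPKM + 1), which gave 727 higher. An adjusted p of 0.05 with no fold limit gave 4063 higher and 4054 lower. Ripening-up genes called forward numbered 1 without a filter and with limma on log2(FPKM + 1), 4 at the adjusted p of 0.05, and 0 in the fits of 6 or 18 libraries, with the replicate block and with limma on log2(FPKM + 0.1). Ripening-down genes called forward numbered 2 in the fit of 6 libraries and with limma on log2(FPKM + 1), 3 in the fit of 18 and 10 at the adjusted p of 0.05. Lists drawn from E-L 35 to E-L 38 gave 36 up and 188 down genes backward and 52 down genes forward, and lists at an adjusted p of 0.05 gave 38, 128 and 10. Backward calls outnumbered forward calls on both lists in each of these settings. The cause of these shifts was not tested. The replicate block rests on numbers that do not pair the libraries: same-numbered libraries had deviations correlated at 0.0596, 0.0108 and 0.0571, and not all correlated best with their own number. Among the genes of the naming rule, signs turned for 5 that were not called. Outside the rule they turned for *VviMYB14*, which was called, and for the 53GT genes given above. Other genes outside the rule were not all counted here. With 1 library left out, FLS5 ran over -0.29 to 0.05, GT5 over -0.96 to 0.2, GT6 over -0.64 to 0.11, CTR1 VIT_217s0000g08240 over -0.26 to 0.14, SAUR VIT_211s0016g00500 over -0.42 to 0.33 and *VviMYB14* over -3.79 to 0.26, the last value without E-L 36 replicate 3. This SAUR gene was at -0.06 with the replicate block and at -0.14 and -0.16 with limma. Across the settings the call of a named gene was lost 91 times and gained 14 times, and 960 values kept sign and call. The difference from the mean change of the other 3 series was called for 7246 to 7849 genes with 1 library left out.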
